A study of Homo sapiens with 4 samples.

Results

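The experiment set SiHa cells transfected with siDDX24-1, a small interfering RNA against DDX24, against SiHa cells transfected with siControl, with RNA taken on day 2. All genes listed in the SiHa table were used, which is 12191 of the 13115 genes listed in either table of the study. The study asked about DDX24 and the production of agrin in cervical squamous cell carcinoma, and it made the same pair of libraries in a line called MS751. SiHa is an established line from a squamous cell carcinoma of the human cervix, and the labels give its genotype as WT. The labels describe the same handling for the siDDX24-1 library and the siControl library, and do not say when each was transfected or prepared. Each culture, in 2 mL of DMEM with 10% serum, was given 5 µL of siRNA at 20 µM together with a lipid reagent. The labels name 1 siRNA against DDX24 and 1 library for each siRNA, so an effect of DDX24 loss and an effect of that siRNA on other transcripts cannot be told apart.

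DDX24 is a DEAD-box protein, a member of the family of ATP-driven enzymes that remodel RNA, and it is found largely in the nucleolus, where ribosomes are assembled. An siRNA guides the cell's silencing machinery to a matching messenger RNA, which is cut and degraded, and it can also lower transcripts that match only its seed. Agrin, the product of AGRN, is a heparan sulphate proteoglycan of the extracellular matrix that binds dystroglycan and LRP4 at the cell surface.

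The deposited values were whole-number read counts per gene. The counts summed to 20117442 in the siDDX24-1 library and 17707551 in the siControl library. Every listed gene had at least 18 reads in both libraries, and at least 1.02 CPM (counts scaled to the library's total), so genes silent in either library were not listed. Mitochondrially encoded transcripts took 9.61% of the siDDX24-1 counts and 8.13% of the siControl counts. Folds below are log2 ratios of CPM, siDDX24-1 over siControl, after TMM scaling. Each interval is an exact 95% interval of the ratio of the 2 counts. It covers counting error only, and reads copied by PCR can make it too narrow even for that. With 1 library for each siRNA there was no replicate check, no test and no p-value. In bulk RNA, a lower level per cell and fewer cells that express a gene cannot be told apart.

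The epithelial label was checked against marker genes. All 6 markers of simple epithelium were listed. KRT8 had 27714 counts in the siDDX24-1 library and 28824 in the siControl library, and KRT18 had 10874 with siDDX24-1 and 10850 with siControl. Of 12 squamous markers 6 were listed. KRT5, KRT6A, KRT14, TP63 and DSG3 were among those not listed, while KRT17, a keratin of squamous and stressed epithelium, had 17229 counts with siDDX24-1 and 18070 with siControl. Of 14 endothelial markers only PECAM1 was listed, and of 12 leukocyte markers only CD14 and CD68. Of 12 fibroblast markers 7 were listed, several of them collagens.

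DDX24 itself had 575 counts in the siDDX24-1 library and 3464 in the siControl library, which is 29.2 CPM with siDDX24-1 against 192 CPM with siControl. Its log2 fold was -2.71 (95% interval -2.84 to -2.59), a level 6.55-fold lower with siDDX24-1. The gene lies on the minus strand of chromosome 14, at chr14:94048291-94081245 on GRCh38. Its exons overlap those of OTUB2, which had 92 counts with siDDX24-1 and 45 with siControl and was thus the other way. AGRN, at chr1:1020123-1056118, had 364 CPM in the siDDX24-1 library and 599 CPM in the siControl library. Its log2 fold was -0.72 (interval -0.76 to -0.68), inside 2-fold, and it was -0.39 once the fold's trend with base composition was removed.

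That trend ran through the whole comparison. Genes whose longest coding transcript was rich in G and C had lower folds than genes poor in them, with a Spearman correlation of -0.34 across genes, which share 1 pair of libraries. Among the 1217 genes with the lowest GC content, 31.3% to 38.7%, the median log2 fold was 0.11, with 27 genes past 2-fold on the higher side and 18 on the lower side. Among as many genes with the highest GC content, 62.3% to 74.7%, the median was -0.30, with 6 past 2-fold on the higher side and 92 on the lower side. Transcript length had little relation to the fold, with a Spearman correlation of 0.06. A smooth curve of the fold on GC content was therefore subtracted to give each gene a fold with the GC trend removed. Single folds below are as measured unless the removal is named. The source of the trend, in the cells or in the library preparation, cannot be told apart with 1 library for each siRNA.

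Coding stretches of 5 genes show what that range of base composition looks like, and how far the subtraction reaches. Each is a 120-base window of the sense strand, 5′ to 3′, from the longest coding transcript in GENCODE release 29 on GRCh38, taken where its GC content came nearest to that of the whole transcript. Capitals mark G and C. AGRN and COL6A2 are matrix genes at the GC-rich end, LRRC8E and LRRC8D encode subunits of the same channel family and differ in GC content, and TGFBR1 lies at the GC-poor end.
AGRN: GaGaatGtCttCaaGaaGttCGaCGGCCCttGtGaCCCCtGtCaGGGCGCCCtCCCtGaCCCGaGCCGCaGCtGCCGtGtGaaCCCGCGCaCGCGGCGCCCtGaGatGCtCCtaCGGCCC
COL6A2: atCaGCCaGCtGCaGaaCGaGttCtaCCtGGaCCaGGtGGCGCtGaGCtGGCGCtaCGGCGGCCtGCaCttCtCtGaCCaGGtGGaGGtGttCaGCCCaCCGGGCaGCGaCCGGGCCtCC
LRRC8E: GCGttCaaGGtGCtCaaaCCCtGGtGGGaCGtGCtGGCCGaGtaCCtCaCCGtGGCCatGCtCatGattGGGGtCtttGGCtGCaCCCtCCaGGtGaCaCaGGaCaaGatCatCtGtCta
LRRC8D: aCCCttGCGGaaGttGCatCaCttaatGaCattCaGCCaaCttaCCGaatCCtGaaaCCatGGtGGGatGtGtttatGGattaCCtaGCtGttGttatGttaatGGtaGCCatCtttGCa
TGFBR1: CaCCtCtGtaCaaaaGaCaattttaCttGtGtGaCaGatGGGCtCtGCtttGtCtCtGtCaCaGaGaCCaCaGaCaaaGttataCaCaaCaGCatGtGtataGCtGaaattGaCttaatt

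AGRN transcripts are 67.5% G and C, and those of COL6A2 (chr21:46098097-46132849) 66.4%. Both folds lay closer to 0 once the trend was removed, and that of COL6A2, -1.30 as measured, dropped just under the 2-fold limit at -0.99. LRRC8E (chr19:7888505-7902021) at 57.5% and LRRC8D (chr1:89821014-89936611) at 42.8% kept folds near -3, with -3.16 and -2.80 once the trend was removed. TGFBR1 (chr9:99104038-99154192) at 39.0% went slightly further from 0, with -2.21 as measured and -2.34 with the trend removed. The subtraction thus moved these genes by a fraction of a log2 unit, which decided the call of a gene near the 2-fold limit and not of those far beyond it.

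**Figure D1:**
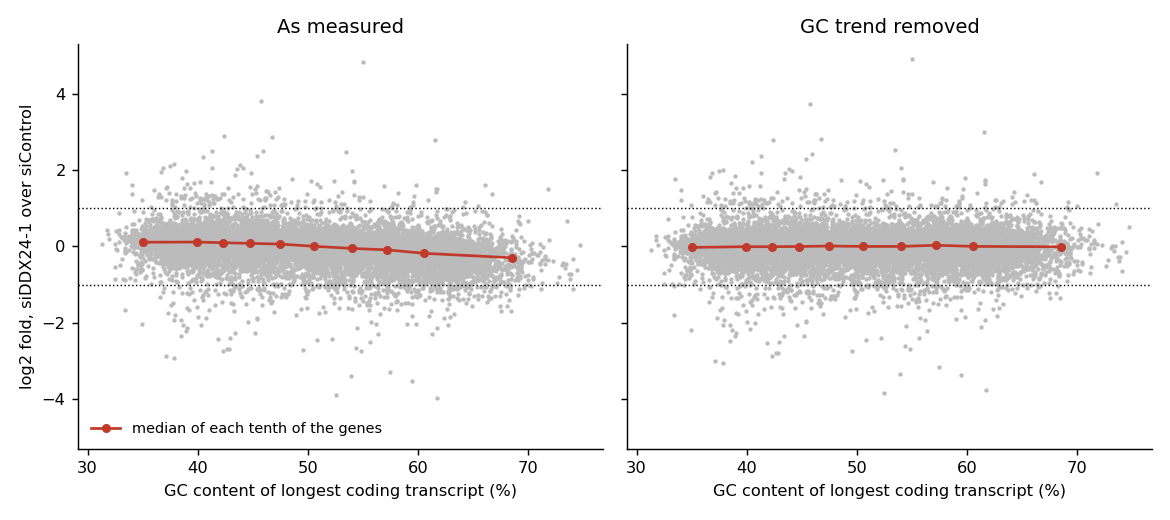
Log2 fold of each SiHa gene, siDDX24-1 over siControl, against the GC content of its longest coding transcript in percent, as measured (left) and with the GC trend removed (right). Grey points are genes, red points the medians of 10 equal groups of genes, and dotted lines mark 2-fold. As measured, the medians fall from 0.11 to -0.30 along the axis, and after removal they lie near 0.

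As measured, 178 of 12189 genes (1.46%) were at least 2-fold higher in the siDDX24-1 library and 372 (3.05%) at least 2-fold lower. With the GC trend removed, 197 of 12167 genes (1.62%) were higher and 292 (2.40%) lower. The share of lower genes among those past 2-fold was 67.6% as measured and 59.7% with the trend removed. Both values passed 2-fold in the same direction for 159 genes higher (1.31%) and 262 genes lower (2.15%), and a gene is called higher or lower below only where both did. Removal of the trend left out 107 genes that were lower as measured and 17 that were higher. At 4-fold, 12 genes were higher and 29 lower by both values. The limit is not a gap in the data. As measured, H2BC11 with 330 counts in the siDDX24-1 library and 151 in the siControl library stood just inside it and GANAB (14961 counts with siDDX24-1 against 6888 with siControl) just outside. HELZ2 (1435 counts with siDDX24-1 against 2638 with siControl) and MDH1B (42 counts with siDDX24-1 against 78 with siControl) stood just inside and just outside the lower limit.

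Single genes were ranked by the fold with the trend removed, among named genes with GC content and at least 10 CPM in 1 or both libraries, without readthrough entries. By that rank the highest fold belonged to DAG1, which encodes dystroglycan, the surface receptor that binds agrin and laminins. DAG1 had 240 CPM (4734 counts) in the siDDX24-1 library and 8.40 CPM (152 counts) in the siControl library, a log2 fold of 4.83 as measured (interval 4.61 to 5.08) and 4.91 with the trend removed. CBL, a ubiquitin ligase that sends activated receptor tyrosine kinases for degradation, was next by the same rank. It had 75.4 CPM with siDDX24-1 and 5.36 CPM with siControl, a fold of 3.80 (interval 3.52 to 4.12). MDM4, an inhibitor of p53, had 19.1 CPM with siDDX24-1 and 2.54 CPM with siControl, a fold of 2.88 (interval 2.46 to 3.38). All 3 had under 10 CPM in the siControl library and over 10 CPM in the siDDX24-1 library. So had KLHL26, MSRB3, CYB561D1, ZNF181 and CCDC69, given next, and these genes thus entered the rank through the siDDX24-1 library alone. PLEKHA2, RAB31 and STX6 had over 10 CPM in both libraries. KLHL26, a presumed adaptor of a cullin ubiquitin ligase, stood at 2.78 and MSRB3, a methionine sulphoxide reductase, at 2.49. CYB561D1 at 2.47, PLEKHA2 at 2.36, ZNF181 at 2.14, RAB31 at 2.12, STX6 at 2.06 and CCDC69 at 1.99, all as measured, were the other reported genes at the top of that rank.

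At the other end stood IFITM1, an interferon-induced membrane protein that restricts virus entry. IFITM1 had 5.03 CPM (99 counts) in the siDDX24-1 library and 74.8 CPM (1353 counts) in the siControl library, a log2 fold of -3.88 (interval -4.20 to -3.60). Its exons overlap those of IFITM2, which had 2760 counts with siDDX24-1 and 2067 with siControl, a fold of 0.29 and thus the other way. RAB43, a small GTPase of traffic through the Golgi, had 1.78 CPM with siDDX24-1 against 28.6 CPM with siControl, a fold of -3.97, and its exons overlap a readthrough gene, ISY1-RAB43, that the table does not list. EDN2, the vasoactive peptide endothelin 2, had 5.89 CPM with siDDX24-1 against 68.9 CPM with siControl, a fold of -3.54 (interval -3.84 to -3.27). With the GC trend removed IFITM1 stood at -3.85, RAB43 at -3.76 and EDN2 at -3.37. MYC, a transcription factor of growth and ribosome production, had 96 counts with siDDX24-1 and 942 with siControl, a fold of -3.40 (interval -3.74 to -3.11). MXD1, which competes with MYC for the partner MAX, had 115 counts with siDDX24-1 against 688 with siControl, a fold of -2.69. The deubiquitinase MINDY2 stood at -2.91, the zinc finger repressor ZNF24 at -2.86, the J-protein DNAJC27 at -2.75 and C1orf226 at -2.66. IFITM1, RAB43, EDN2, MYC, MXD1, MINDY2, DNAJC27, C1orf226 and LRRC8E had under 10 CPM in the siDDX24-1 library. They thus entered the rank through the siControl library alone, while DDX24, LRRC8D and ZNF24 had over 10 CPM in both. The interferon-stimulated genes, kept here only as a yardstick, had 16 of 39 members lower, none higher and a median of -0.84 with the trend removed.

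**Figure D2:**
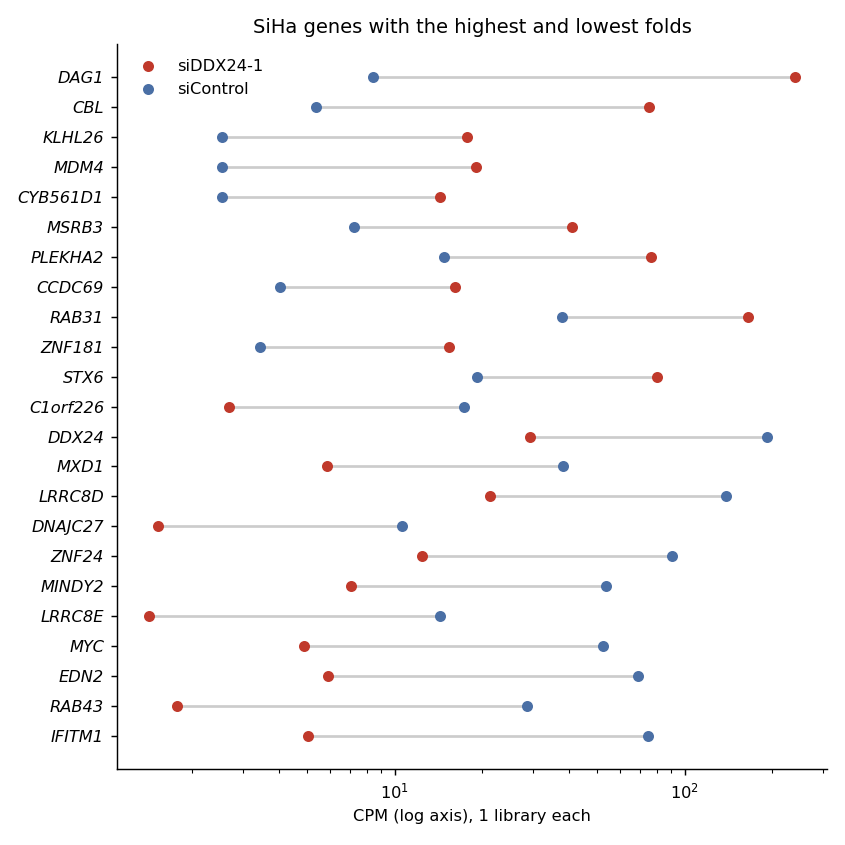
CPM on a log axis of the genes with the highest and lowest folds, siDDX24-1 in red and siControl in blue, 1 library each. Grey lines join the 2 libraries of a gene. DAG1 spans the widest gap on the higher side (240 with siDDX24-1 against 8.40 CPM with siControl) and IFITM1 (5.03 with siDDX24-1 against 74.8 CPM with siControl) and RAB43 the widest on the lower side.

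A few of the large values belonged to genes that share exons with others. FMC1-LUC7L2, a readthrough of FMC1 and the splicing factor gene LUC7L2, had 1558 counts in the siDDX24-1 library and 194 in the siControl library, a log2 fold of 2.88. FMC1 itself had 159 counts with siDDX24-1 against 251 with siControl, a fold of -0.78, and LUC7L2 had 1634 with siDDX24-1 against 2609 with siControl, a fold of -0.80. Summed, the 3 entries had 3351 counts with siDDX24-1 and 3054 with siControl, a fold of 0.01. Their total thus barely differed, while its split among the entries did. In MS751, FMC1-LUC7L2 had 839 counts with siDDX24-1 and 152 with siControl, a fold of 2.31. Whether the transcripts themselves or the assignment of reads to entries differed was not tested. In SiHa UBE2V1, a partner subunit of a ubiquitin-conjugating enzyme, likewise stood at 0.81 and its readthrough PEDS1-UBE2V1 at -1.16, and their sum at 0.18. Among the highest and lowest genes above, CBL shares exons with MCAM, which stood at 0.32. MXD1 shares them with SNRNP27 at 0.17, and C1orf226 with NOS1AP at -0.65. Among all 12189 genes 31.7% share exons with another gene, as do 30.6% of those called higher or lower.

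Gene families were then read one by one, in 65 lists that together held 2990 of the genes. Of the listed genes 40 (1.34%) were higher and 62 (2.07%) lower, beside 119 higher and 200 (2.18%) lower of the 9177 genes in no list. In 24 of the lists no member passed 2-fold by both values. In 59 of them the median fold with the trend removed lay within 0.2 of 0. The interferon-stimulated genes, with the lower median given above, are not among these lists. Of the 130 medians, as measured and with the trend removed, 42 change sign under 1 or more of the alternatives tried, none of them over 0.11 in size.

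**Figure D3:**
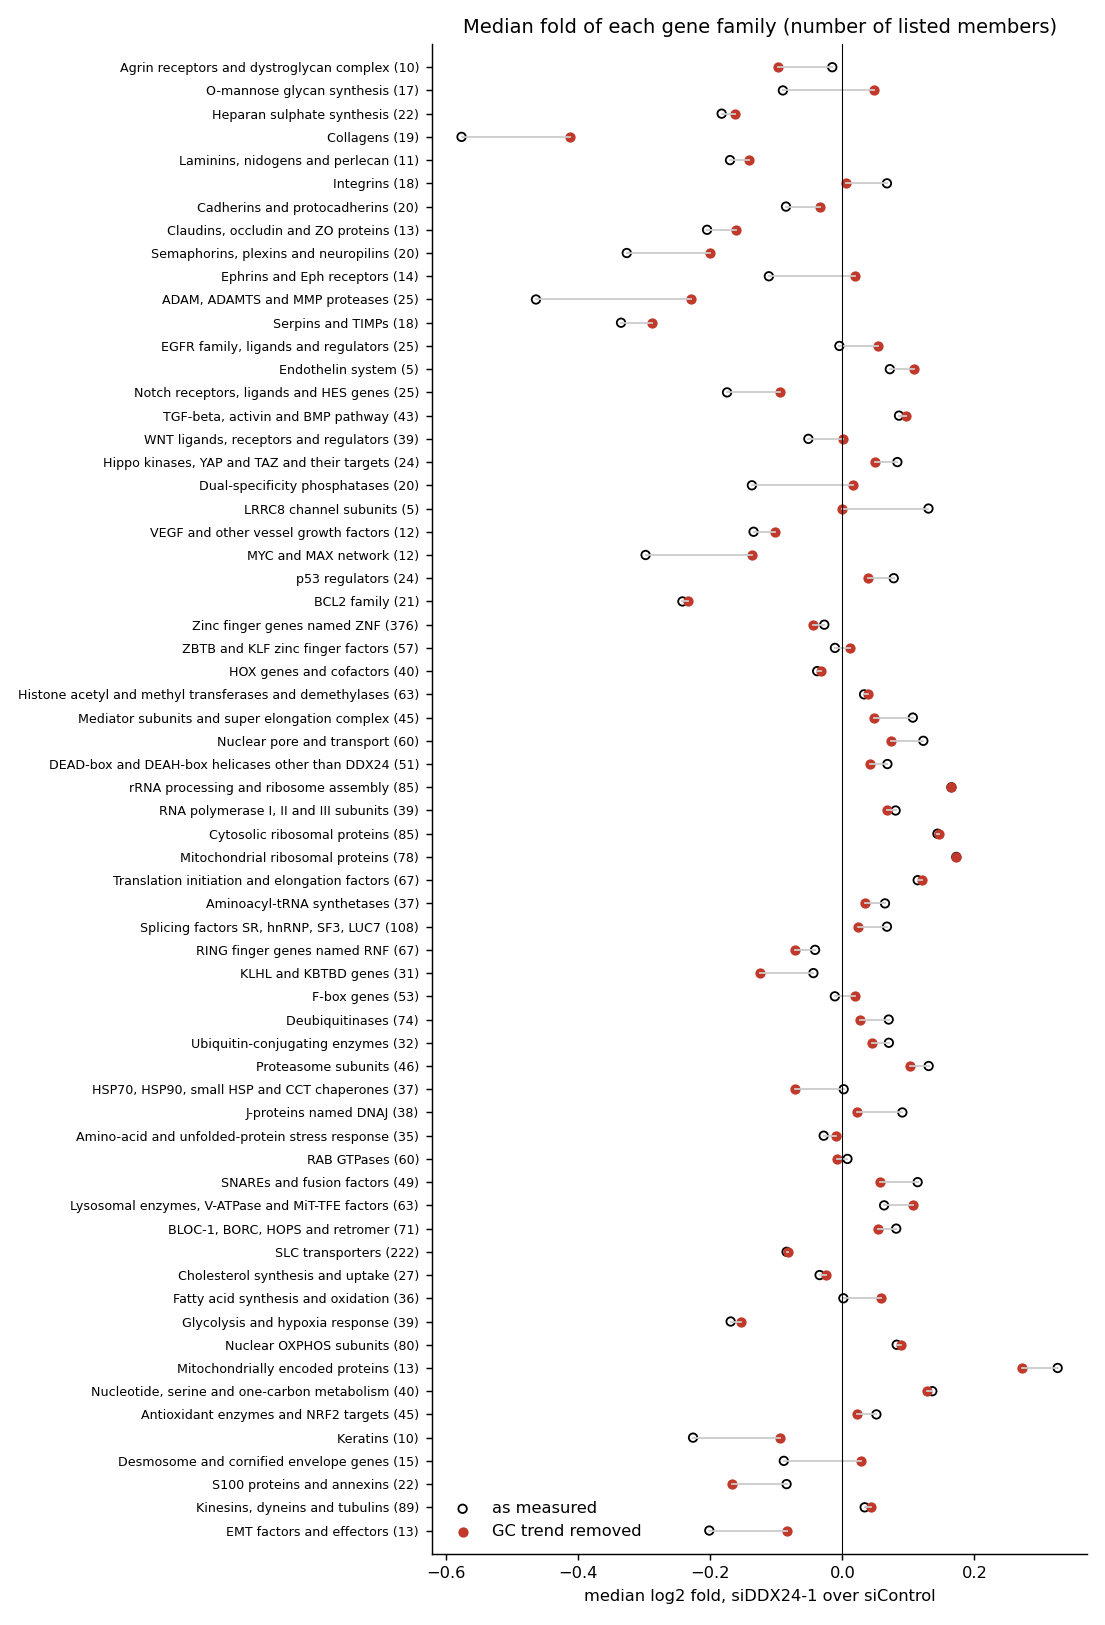
Median log2 fold, siDDX24-1 over siControl, of the gene families with the number of listed members in brackets, as measured (open circles) and with the GC trend removed (red). Of the families shown, collagens lie furthest below 0 (-0.58 and -0.41) and the mitochondrially encoded proteins furthest above it (0.33 and 0.27).

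Genes of the cell surface and matrix leaned low, in part along with their GC content. Of 207 such genes 1 was higher and 7 (3.38%) lower, beside 2.15% of all genes, and their median was -0.18 as measured and -0.13 with the trend removed. DAG1 was the single higher gene. The other agrin receptor, LRP4, which relays agrin to the kinase MuSK in muscle, had 26 counts in the siDDX24-1 library and 69 in the siControl library, a fold of -1.49 (interval -2.24 to -0.86). The other listed partners of dystroglycan did not pass 2-fold. Utrophin, UTRN, stood at 0.29 and the syntrophins SNTB1 at 0.71 and SNTB2 at 0.12. Sarcoglycan beta, SGCB, had nearly equal counts, 2366 with siDDX24-1 and 2410 with siControl. None of the 17 listed genes for the O-mannose glycans that let dystroglycan bind its ligands, and none of 22 for heparan sulphate, passed 2-fold. Among them DPM2, a subunit of the enzyme that supplies mannose, came nearest at 0.77 as measured and 0.96 with the trend removed.

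Collagens had the lowest median of the 65 lists. It was -0.58 as measured over 19 genes, of which 4 were at least 2-fold lower, and -0.41 with the trend removed, when none passed 2-fold by both values. The collagens had a median level of 4.83 CPM, beside 34.4 CPM for all genes. Under the alternatives tried, their median as measured ranged from -0.86 to -0.52. COL6A2, a chain of the beaded filaments of collagen VI, had 56.5 CPM in the siDDX24-1 library and 139 CPM in the siControl library, and its partner chain COL6A1 stood at -0.93 as measured and -0.67 with the trend removed. COL1A1, a chain of collagen I, had 149 counts with siDDX24-1 against 306 with siControl, a fold of -1.16 as measured and -0.96 with the trend removed. COL7A1, the anchoring fibril collagen of squamous epithelium, stood at -0.65 as measured and -0.38 with the trend removed. The family did not lean as one. COL12A1 had 13296 counts with siDDX24-1 and 7592 with siControl, a fold of 0.69, and COL15A1 stood at 0.55. Fibroblast markers, which share 3 of their 7 listed genes with the collagens, had a median of -0.52 as measured and -0.41 with the trend removed, with PDGFRB at 21 counts with siDDX24-1 against 23 with siControl and FAP higher in value at 78 with siDDX24-1 against 53 with siControl. Both libraries are labelled as SiHa cells, and the listed fibroblast markers had a median level of 3.45 CPM. Whether any other cells added to the collagen values was not tested.

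Other adhesion genes gave a few single calls. PCDHGC3, of the protocadherin gamma cluster, whose members share their last exons so that reads can be split among them, had 209 counts in the siDDX24-1 library and 654 in the siControl library, a fold of -1.76. ITGA7, a laminin-binding integrin chain, had 87 with siDDX24-1 against 194 with siControl, a fold of -1.27 as measured and -1.09 with the trend removed. Among proteases of the matrix, ADAMTS10 stood at -1.57 (29 counts with siDDX24-1 against 81 with siControl), and its relative ADAMTSL4 at -1.35. Serpins and tissue inhibitors of metalloproteinases had 15 of 18 members below 0 and a median of -0.29 with the trend removed, with 2 of them lower. SERPINB2, an inhibitor of urokinase, had 146 counts with siDDX24-1 against 324 with siControl, a fold of -1.27. Semaphorins and their receptors had a median of -0.33 as measured and -0.20 with the trend removed. SEMA3F, a secreted guidance cue, stood at -1.18 as measured and -0.94 with the trend removed and so was not called. CDH1, the epithelial cadherin, stood at -0.75.

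Among signalling genes 2 of 265 (0.755%) were higher and 10 (3.77%) lower, beside 1.31% and 2.15% of all genes. EDN2 and CBL, described above, had the largest folds of either sign, and receptors, a kinase and channel subunits were among the other lower genes. TGFBR1, the type I receptor of TGF-beta, had 9.34 CPM (184 counts) in the siDDX24-1 library and 43.5 CPM (786 counts) in the siControl library, a fold of -2.21 (interval -2.46 to -1.98). ACVR1B, the type I receptor of activin, had 246 counts with siDDX24-1 against 695 with siControl, a fold of -1.62. ID2, a target of BMP signals that blocks basic helix-loop-helix factors, was higher, with 951 counts with siDDX24-1 and 406 with siControl, a fold of 1.10. The other 40 of the 43 listed genes of the pathway were not called, and the family median was 0.10 with the trend removed. STK4, the Hippo kinase MST1, had 25.2 CPM with siDDX24-1 against 121 CPM with siControl, a fold of -2.26, and was the only one called of 24 Hippo genes. In the Notch list, HES7, a transcriptional repressor, stood at -1.76 (34 counts with siDDX24-1 against 108 with siControl), and LFNG, a glycosyltransferase that modifies Notch receptors, at -1.38. Of the dual-specificity phosphatases, DUSP22 stood at -1.20 and DUSP18 at -1.12. CBL was the only one called of 25 genes of the EGFR list.

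The channel family LRRC8, whose subunits assemble into the anion channels that open when cells swell, held 2 lower members of 5. LRRC8A, the obligatory subunit, had 2444 counts in the siDDX24-1 library and 1943 in the siControl library, a fold of 0.21 (interval 0.12 to 0.29). LRRC8B stood at 0.42 and LRRC8C at 0.13. LRRC8D had 421 counts with siDDX24-1 against 2507 with siControl, a fold of -2.69 (interval -2.85 to -2.55), and LRRC8E had 28 with siDDX24-1 against 259 with siControl, a fold of -3.28 (interval -3.95 to -2.77). The 2 lower subunits thus stand far apart from the other 3, at either of the GC contents shown above. The endothelin list had a like shape. EDN2 was far lower, while EDN1 (25 counts with siDDX24-1 against 20 with siControl), the receptor EDNRB (267 counts with siDDX24-1 against 178 with siControl) and the converting enzyme ECE1 (3415 counts with siDDX24-1 against 2984 with siControl) had folds above 0. ECE2, a related enzyme, stood at -0.53. Wnt genes and vessel growth factors of the VEGF list had no member called. In the VEGF list ANGPTL4, a lipase inhibitor, stood at -0.80.

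In the nucleus 17 of 697 genes (2.44%) were higher and 19 (2.73%) lower, beside 1.31% and 2.15% of all genes, and zinc finger genes supplied most of the higher ones. Of 376 genes named ZNF, 15 (3.99%) were higher and 11 (2.93%) lower, with a median of -0.04. Their median level was 12.1 CPM, beside 34.4 CPM for all genes, and the part of that lower level in these shares was not tested. ZNF181 had 302 counts in the siDDX24-1 library and 62 in the siControl library. ZNF24 had 12.4 CPM with siDDX24-1 and 90.4 CPM with siControl, ZNF34 stood at -2.41 (29 counts with siDDX24-1 against 146 with siControl), and ZNF33B at -1.93 (26 counts with siDDX24-1 against 94 with siControl). Several ZNF genes have close paralogs, so the split of reads among them is uncertain. MYC and MXD1 were the 2 called of 12 genes of the MYC and MAX network. The partner MAX stood at 0.35, the MAX dimer factors MNT, MXD3 and MGA at -0.12, 0.01 and 0.34, and MYCL at -0.69 (42 counts with siDDX24-1 against 63 with siControl).

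Regulators of transcription gave 1 higher and several lower members. KAT6A, a histone acetyltransferase, had 916 counts in the siDDX24-1 library and 283 in the siControl library, a fold of 1.57 (interval 1.38 to 1.77), the only one called of 63 chromatin enzymes. AFF1, a scaffold of the super elongation complex, had 271 counts with siDDX24-1 against 1195 with siControl, a fold of -2.26 (interval -2.46 to -2.07), and MED22, a Mediator subunit, stood at -1.15. HOXB3, a homeodomain factor of body patterning, stood at -1.06. BMF, a pro-apoptotic member of the BCL2 family, had 26 counts with siDDX24-1 and 166 with siControl, a fold of -2.75 (interval -3.45 to -2.20), and the family median was -0.23 with the trend removed. MDM4 was the only one called of 24 regulators of p53. IPO4, an import receptor that carries ribosomal proteins and histones, stood at -1.82 (174 counts with siDDX24-1 against 568 with siControl). Its exons overlap those of REC8, which stood at -1.33.

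Genes for RNA and translation, the setting in which DEAD-box proteins are best known, were the least scattered of the 8 groups of lists, with an interquartile range of 0.31 beside 0.41 for all genes, both with the trend removed. Their median level was 84.6 CPM, beside 34.4 CPM for all genes, and the part of that level in the smaller scatter was not tested. Of 547 such genes 2 (0.366%) were higher and 5 (0.914%) lower, beside 1.31% and 2.15% of all genes, and their median was 0.11 with the trend removed, beside -0.004 for all genes. Of 85 factors of rRNA processing and ribosome assembly 66 lay above 0, with a median of 0.16. NOLC1, a nucleolar chaperone of small RNA-protein particles, was the only one called, with 162 CPM in the siDDX24-1 library and 75.8 CPM in the siControl library, a fold of 1.09 (interval 1.00 to 1.19). Of 85 cytosolic ribosomal protein genes 64 lay above 0, with a median of 0.15, and none was called. RPLP0, of the ribosomal stalk, was the highest at 0.98 (17710 counts with siDDX24-1 against 8241 with siControl), and RPL41 the lowest at -0.67. These genes have many processed pseudogenes with which reads may be shared. The mitochondrial ribosomal proteins had a median of 0.17, and MRPL10 at -1.14 was the only one called of 78. Table totals in place of TMM lower the median of all genes by 0.06, and these 3 medians keep their sign under each scaling.

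The remaining RNA families held few calls. Among 51 other DEAD-box and DEAH-box helicases, DDX60, an interferon-stimulated sensor, was the only one called, with 259 counts in the siDDX24-1 library and 554 in the siControl library, a fold of -1.22. Translation factors, aminoacyl-tRNA synthetases and RNA polymerase subunits had none. EIF5, which triggers GTP hydrolysis at the start codon, stood at -0.80, and GSPT1, a termination factor, at 0.65. POLR1B, the second largest subunit of RNA polymerase I, stood at 0.71. Of 108 splicing factors, PRPF40B at -1.18, RBM33 at -1.09 and RBM24 at -1.05 were lower, and FMC1-LUC7L2, described above, was the one higher entry.

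Protein turnover held 4 higher and 4 lower of 410 genes (0.976% each), beside 1.31% and 2.15% of all genes. RNF182, a membrane-bound RING ligase, had 121 counts in the siDDX24-1 library and 19 in the siControl library, a fold of 2.49 (interval 1.84 to 3.33). KLHL18, an adaptor of cullin 3, had 515 with siDDX24-1 against 227 with siControl, a fold of 1.06, and KLHL26 was the other higher member of its family of 31. CANX, the lectin chaperone calnexin of the endoplasmic reticulum, had 1256 CPM with siDDX24-1 and 502 CPM with siControl, a fold of 1.32 (interval 1.29 to 1.36). No other gene was called among the 35 listed for the responses to unfolded proteins and amino-acid lack. Of 74 deubiquitinases MINDY2 and USP41 were lower, USP41 at -1.06 (35 counts with siDDX24-1 against 68 with siControl). USP41 is a near copy of the interferon-stimulated USP18, so its counts are uncertain. DNAJC16, a J-protein of the endoplasmic reticulum, stood at -1.33. F-box genes, ubiquitin-conjugating enzymes, proteasome subunits and the heat shock families had none called. The proteasome genes lay closely together around a median of 0.10, with PSMD7 highest at 0.79 and PSME2 lowest at -0.47.

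Membrane traffic had 6 of 465 genes higher (1.29%) and 10 lower (2.15%), close to the shares of all genes, with large folds on single members. RAB31, a GTPase of endosomes and the trans-Golgi network, had 165 CPM (3246 counts) in the siDDX24-1 library and 37.8 CPM (683 counts) in the siControl library, a fold of 2.12 (interval 2.01 to 2.25). RAB43, RAB37 and RAB40C were lower. RAB40C had 558 counts with siDDX24-1 and 1437 with siControl, a fold of -1.49 as measured and -1.22 with the trend removed. The other 56 listed RAB genes were not called. Of the SNAREs, which drive membrane fusion, STX6 had 80.5 CPM with siDDX24-1 and 19.2 CPM with siControl, a fold of 2.06 (interval 1.90 to 2.24), and STX16, its partner at the trans-Golgi network, had 120 with siDDX24-1 against 44.8 CPM with siControl, a fold of 1.42. VAMP1, a vesicle SNARE, stood at -1.12. SNX12, a sorting nexin, had 1936 counts with siDDX24-1 against 688 with siControl, a fold of 1.37.

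Among the complexes that make and move lysosomes, BLOC1S6, a subunit of BLOC-1, had 265 counts in the siDDX24-1 library and 1083 in the siControl library, a fold of -2.15 (interval -2.35 to -1.96). ATP6AP2, an accessory subunit of the proton pump of lysosomes, had 2569 with siDDX24-1 against 1092 with siControl and stood at the limit with 1.11 as measured and 0.99 with the trend removed. Of 222 solute carriers 2 (0.901%) were higher and 5 (2.25%) lower, the lower share near the 2.15% of all genes, with a median of -0.08. As measured 11 were at least 2-fold lower, so 6 of them left the count when the trend was removed. SLC2A5, the fructose transporter, stood at -1.75 (22 counts with siDDX24-1 against 70 with siControl) and SLC10A3 at -1.64. SLC66A2 and SLC66A3, of the PQ-loop family, went opposite ways, at 1.04 (752 counts with siDDX24-1 against 336 with siControl) and at -1.13 (58 counts with siDDX24-1 against 118 with siControl).

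**Figure D4:**
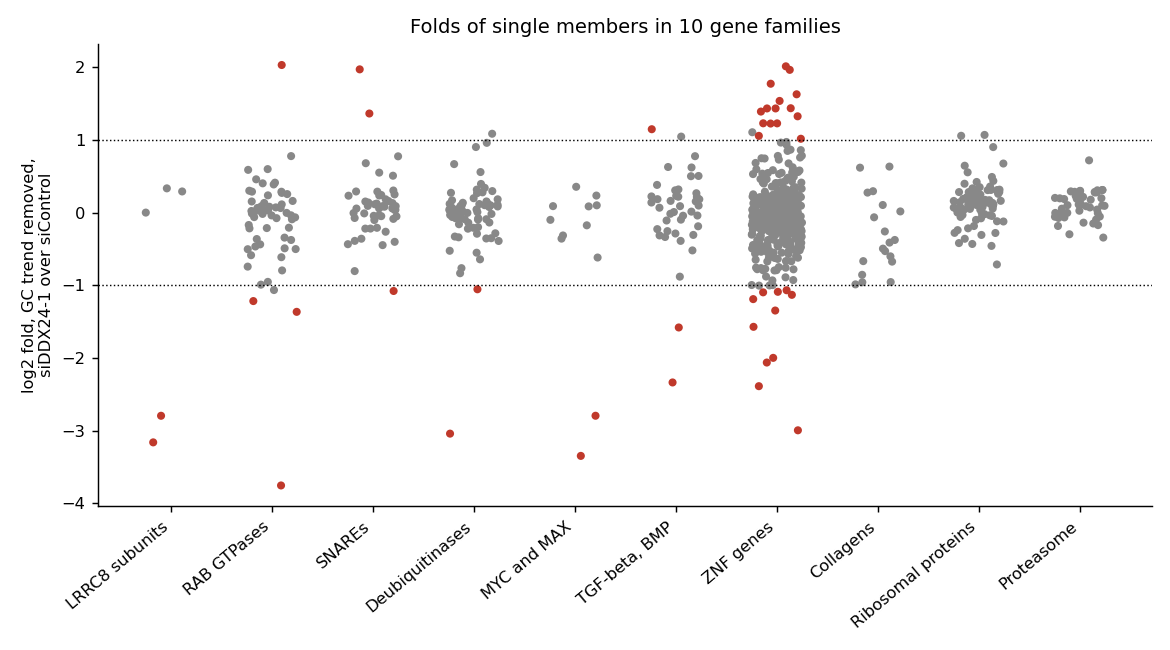
Log2 fold with the GC trend removed, siDDX24-1 over siControl, of every listed member of 10 gene families; each point is a gene, and red points passed 2-fold by both values (dotted lines). LRRC8 subunits, RAB GTPases, deubiquitinases, ZNF genes and the MYC and MAX network have 1 or more members beyond -2.5. Ribosomal proteins and proteasome subunits stay close together.

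In metabolism 5 of 280 genes were higher (1.79%) and 1 lower (0.357%), beside 1.31% and 2.15% of all genes. PRPS2, which makes the ribose donor of nucleotide synthesis, had 1365 counts with siDDX24-1 against 557 with siControl, a fold of 1.17. COX7A2L, a protein of respiratory supercomplexes, had 76.9 CPM with siDDX24-1 and 19.0 CPM with siControl, a fold of 2.02. Antioxidant genes went both ways. TXNRD1, thioredoxin reductase, had 9705 counts with siDDX24-1 against 4065 with siControl, a fold of 1.13, and MSRB3 was higher too. NFE2L2, the factor NRF2 that is known to drive many antioxidant genes, TXNRD1 among them, had 1470 counts with siDDX24-1 against 3191 with siControl, a fold of -1.24 (interval -1.33 to -1.15).

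The 13 mitochondrially encoded protein genes all lay above 0, with a median of 0.33 as measured and 0.27 with the trend removed. The lowest was MT-CO3 at 0.15 and the highest MT-ND6 at 0.70, with 31670 counts in the siDDX24-1 library and 17963 in the siControl library. MT-ND6 lies on the opposite strand from its neighbours, and the strand setting of the counts is not known, so its reads may include those of other transcripts. The 80 nuclear genes of oxidative phosphorylation had a median of 0.09. Of 39 genes of glycolysis and the hypoxia response 29 lay below 0, with a median of -0.15 with the trend removed, and none was called. CA12, a carbonic anhydrase, was lowest at -0.97, and TPI1, a glycolytic isomerase, stood at 0.48. No gene of the cholesterol or fatty acid lists was called.

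Squamous and cytoskeletal genes had 3 of 149 higher (2.01%) and 6 lower (4.03%), beside 1.31% and 2.15% of all genes. Their median was 0.02 with the trend removed, and the squamous families did not lean as one. With the trend removed, 10 of 15 desmosome and cornified envelope genes lay above 0, with a median of 0.03. Of 10 keratins 7 lay below 0, with a median of -0.09. Of 22 S100 proteins and annexins 14 lay below 0, with a median of -0.17. PKP1, a plaque protein of desmosomes, had 34 counts in the siDDX24-1 library and 158 in the siControl library, a fold of -2.30 (interval -2.92 to -1.80). KRT16, a keratin of activated epidermis, had 164 with siDDX24-1 against 377 with siControl, a fold of -1.32, with reads that its close paralog KRT17 may share, and KRT15, a basal keratin, had 150 with siDDX24-1 against 294 with siControl, with -1.09 as measured and -0.99 with the trend removed. The abundant keratins hardly differed, with KRT7 at 0.14 and KRT17 at -0.19. S100A9 and S100A14, calcium-binding proteins of squamous epithelium, stood at -1.34 and -1.30. MAPT, the microtubule protein tau, had 63 counts with siDDX24-1 and 182 with siControl, a fold of -1.64, and MAP1S, another microtubule-associated protein, had 411 with siDDX24-1 against 1111 with siControl, a fold of -1.55. MAP2, a relative of tau, went the other way, having 1104 counts with siDDX24-1 and 419 with siControl, a fold of 1.27. DCTN5, a dynactin subunit, stood at 1.23. SNAI2, a repressor of epithelial genes, had 154 counts with siDDX24-1 against 59 with siControl, a fold of 1.25, and was the only one called of 13 factors and effectors of the epithelial to mesenchymal transition.

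The MS751 pair gave values of the same genes in a different line, from libraries that share no sample with the SiHa pair. There, DDX24 had 993 counts with siDDX24-1 and 2072 with siControl, a fold of -1.20, smaller in size than in SiHa. In MS751, 306 genes (2.55%) were higher and 698 (5.81%) lower by both values. Of the 11 SiHa genes at the top, all listed in MS751, 2 were at least 2-fold higher there and 2 at least 2-fold lower, by the fold as measured alone. The share of all MS751 genes past 2-fold as measured alone, which would match these counts, was not computed. RAB31 had nearly the same fold in both lines, 2.12 in SiHa and 2.16 in MS751, and MDM4 stood at 2.88 in SiHa and 1.79 in MS751. DAG1, the highest SiHa gene, had 4619 counts with siDDX24-1 and 3863 with siControl in MS751, a fold of 0.11, and CBL stood at -0.50. DAG1 was thus scarce only in the SiHa siControl library among the 4 libraries.

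Of the 12 SiHa genes at the bottom, 10 were listed in MS751. By the fold as measured, 4 of these were at least 2-fold lower there and none at least 2-fold higher, again without the matching share of all MS751 genes. RAB43 stood at -3.31 in MS751, IFITM1 at -1.73 and DNAJC27 at -1.04, beside DDX24 itself. MYC had 315 counts with siDDX24-1 and 232 with siControl in MS751, a fold of 0.30, and ZNF24 stood at -0.06. EDN2 and LRRC8E were not listed there. Among the families, BLOC1S6 at -2.10, AFF1 at -2.45, BMF at -2.44, MAPT at -2.02 and KAT6A at 2.42 had MS751 folds of the same sign as in SiHa and past 2-fold. TGFBR1 at 0.39, STK4 at 0.62 and NFE2L2 at 0.46 lay on the other side of 0 in MS751. These genes are examples, and agreement over the 345 called SiHa genes that MS751 lists was not counted. With 1 library for each siRNA in each line, no test of a difference between the lines was possible.

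**Figure D5:**
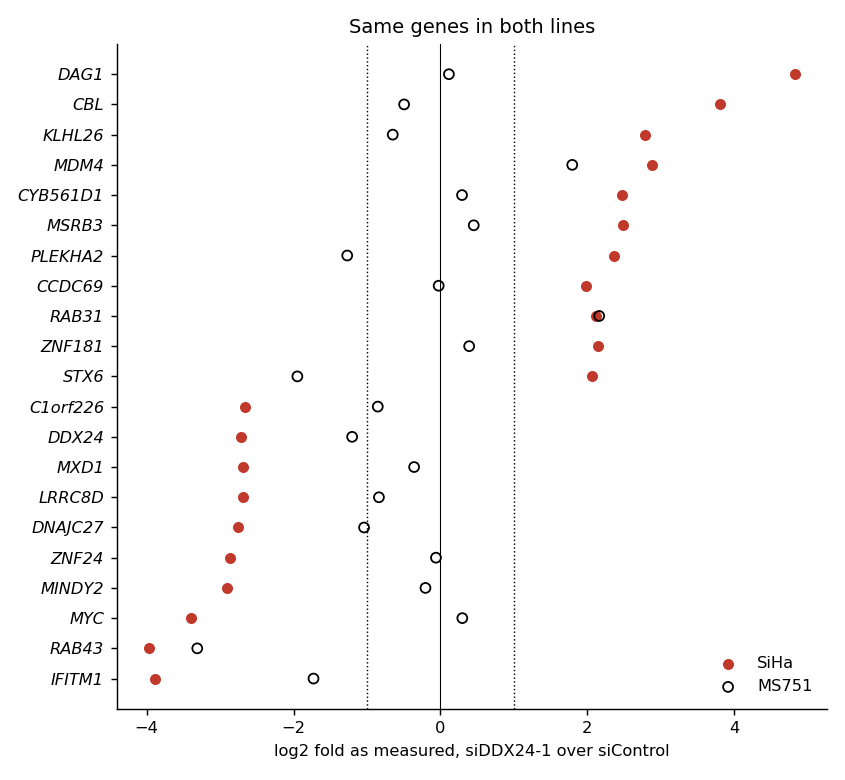
Log2 fold as measured, siDDX24-1 over siControl, in SiHa (filled) and MS751 (open) for the highest and lowest SiHa genes that MS751 lists; dotted lines mark 2-fold. RAB31, MDM4, RAB43 and IFITM1 lie past 2-fold on the same side in both lines, PLEKHA2 and STX6 on opposite sides, and DAG1, CBL and MYC past 2-fold in SiHa alone.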

How the data were processed

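The labels give 1 RNA library for each of siDDX24-1 and siControl in SiHa and in MS751. The values the authors deposited are raw read counts, with Ensembl identifiers. The submitters' processing notes name the tools StringTie 1.3.4d, HISAT2 2.0.4 and fastp 0.23.2 and the genome GRCh38.p12 (hg38), without their roles. The sources used here do not give what counted the reads, by which annotation or with which strand setting. Of 12261 SiHa rows, 70 identical copies were dropped, leaving 12191 genes. Every identifier was found in GENCODE release 29 (GRCh38), the source of positions, exon overlaps, sequences and the GC content of the longest protein-coding transcript. Symbols for 12182 came from a separate list of names, and 1 row per symbol left 12189 genes, 12167 of them with GC content.

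Log2 folds of TMM-scaled CPM with a prior count of 1 were computed with edgeR 4.0.16 in R 4.3.3, with a minimum mean of 1 CPM that every gene passed. TMM factors were 0.979 for the SiHa siDDX24-1 library and 1.02 for the SiHa siControl library. The GC trend was a smooth curve over all genes (mgcv 1.9.3, basis size 10), recentred to keep the median. The calculation was tested on simulated data. Intervals are exact conditional intervals of a ratio of counts at 95%. No test was possible with 1 library for each siRNA.

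The members and lists were chosen with earlier results of these data known. Genes named were DDX24, AGRN, the 12 highest and 12 lowest folds with the trend removed among genes with at least 10 CPM in 1 or both libraries, up to 4 members past 2-fold by both values in each list, or else its highest and lowest member, and whole small families. Clone names, pseudogenes and readthrough genes were left out of the highest and lowest. Some genes that this rule takes are not reported here. Other genes given as neighbours of the 2-fold limit, exon partners, markers or further members of a list were chosen after their values were seen. Alternatives were table totals, DESeq2 1.42.0 size factors, TMM without mitochondrially encoded genes, other prior counts, a filter at 5 CPM, other GC corrections, overlapping genes left out and a 1.5-fold limit.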

Additional observations from a re-analysis of the deposited data

Results flagged for a closer look

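A handful of the 139 genes that the naming rule gave for SiHa were past 2-fold one way in SiHa and the other way in MS751, by both values. Other named genes, RAB31 and KAT6A among them, were past 2-fold the same way in both lines. The share of all genes with opposite folds was not counted. With 1 library for each siRNA in each line, the difference between lines was not tested. STX6 had a log2 fold (siDDX24-1 over siControl) of 2.06 in SiHa and -1.95 in MS751, where it had 595 counts with siDDX24-1 and 2083 with siControl. PLEKHA2 stood at 2.36 in SiHa and -1.27 in MS751 (477 counts with siDDX24-1 against 1043 with siControl there). RAB40C stood at -1.49 in SiHa and 1.62 in MS751 (359 counts with siDDX24-1 against 105 with siControl there). DNAJC16 stood at -1.33 in SiHa and 1.56 in MS751 (736 counts with siDDX24-1 against 226 with siControl there).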

How the results depend on the processing

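At 2-fold, every count of higher and lower SiHa genes stayed within 1.5 times its value under each alternative scaling, prior count, low-count filter, GC correction and handling of overlapping genes. A 1.5-fold limit gave 567 genes higher and 1219 lower as measured, 571 and 1000 with the GC trend removed, and 464 and 896 by both values. Of 130 list medians 42 changed sign under 1 or more alternatives, all at most 0.11 in size. Of those at least 0.1 in size, that of the ephrins and Eph receptors as measured turned to 0.10 without genes with overlapping exons, and that of the endothelin system with the trend removed turned to -0.086 at a mean of at least 5 CPM, both with few members; the cause was not tested. None of the named folds past 2-fold changed sign. Of 89 named folds past 2-fold as measured, 2 were under it with table totals and 2 with a prior count of 5, and of 88 with the trend removed, 3 and 3, besides 2 with GC in 50 bins and 2 with the mean GC of all transcripts. Table totals in place of TMM shifted the median fold by -0.06. No filter on low values gave the same genes, since all pass it. No paired analysis was possible because SiHa alone has 1 library for each siRNA, and for the same reason no library could be left out; a fit over both lines would test the change they share and was not made here. The lowest counts, near 20 reads, give intervals over 1 log2 unit wide.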
